A study of Mus musculus with 3 samples.

Results

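The collagen genes were taken as every gene symbol made of Col, a number, the letter a and a second number, and 44 of the 55357 genes in the count matrices matched. They were sorted by the type of collagen into 7 fibrillar genes (Col1a1, Col1a2, Col3a1, Col5a1, Col5a2, Col5a3 and Col24a1), 9 basement membrane genes (Col4a1 to Col4a6, Col7a1, Col15a1 and Col18a1), 8 cartilage genes (Col2a1, Col9a1, Col9a2, Col9a3, Col10a1, Col11a1, Col11a2 and Col27a1) and 20 other genes, among them the collagen VI, VIII, XII and XIV genes and the transmembrane collagens Col13a1, Col17a1, Col23a1 and Col25a1. The study, on lonidamine in mice with an induced eosinophilic sinusitis, sequenced single cells of the nasal mucosa of C57BL/6 mice (genotype label C57BL/6J) with a droplet assay that counts the 3′ ends of transcripts. The PBS group received intranasal PBS. The papain group received 20 µg of intranasal papain, a plant protease, with PBS by gavage, and the papain+LND group received the same papain with lonidamine (LND, an inhibitor of energy metabolism) at 10 mg/kg by gavage. Each group held equal numbers of each sex, and all mice of a group were pooled into 1 library, so the 3 libraries give no spread between animals. The tissue was digested with 2 collagenases and Dispase.

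Collagens are extracellular proteins in which 3 chains wind into a triple helix. Fibrillar collagens, chiefly types I and III, assemble into the fibres that give connective tissue its tensile strength, and type V regulates how thick those fibres become. Type IV builds the network of the basement membrane under epithelia and around vessels, with types XV and XVIII attached to it. Type II with types IX and XI forms the fibrils of cartilage, type VI makes microfibrils that link cells to the fibres, and types XII and XIV lie on fibre surfaces. In the nasal mucosa the fibroblasts of the lamina propria are the usual source of fibrillar collagen, while endothelium, mural cells and epithelium contribute basement membrane.

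The sequences upstream of the genes whose levels are described most fully below are shown first. They are the 250 bases before the annotated start of Col1a2 and Col3a1, which encode a chain of type I and the chain of type III collagen, and of Col23a1, a transmembrane collagen whose level differed between libraries in opposite directions in vessel wall cell types. All are from RefSeq on GRCm38.p6, plus strand, which is not the build of the count files, and capitals mark matches, on either strand, to the CCAAT motif, to the TATA box letters TATAAA and to the GC box letters GGGCGG.
Col1a2, chr6:4505368-4505617: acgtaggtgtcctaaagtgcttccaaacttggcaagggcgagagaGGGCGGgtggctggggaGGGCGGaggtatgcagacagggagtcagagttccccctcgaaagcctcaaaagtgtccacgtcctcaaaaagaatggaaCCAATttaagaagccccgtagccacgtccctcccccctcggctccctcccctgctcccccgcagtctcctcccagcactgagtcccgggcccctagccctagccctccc
Col3a1, chr1:45311288-45311537: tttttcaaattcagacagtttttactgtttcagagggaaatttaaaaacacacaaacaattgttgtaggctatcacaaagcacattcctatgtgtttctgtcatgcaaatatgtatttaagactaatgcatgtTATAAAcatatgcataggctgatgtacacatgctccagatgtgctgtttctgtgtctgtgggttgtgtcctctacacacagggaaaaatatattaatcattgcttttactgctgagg
Col23a1, chr11:51289670-51289919: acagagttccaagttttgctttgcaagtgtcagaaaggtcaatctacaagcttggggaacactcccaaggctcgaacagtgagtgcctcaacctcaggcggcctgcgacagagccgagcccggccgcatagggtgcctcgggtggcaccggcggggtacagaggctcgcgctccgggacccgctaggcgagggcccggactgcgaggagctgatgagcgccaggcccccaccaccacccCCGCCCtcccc
The Col1a2 window held a CCAAT match 109 to 105 bases before the start and GGGCGG matches at 205 to 200 and 188 to 183 bases before it. The Col3a1 window, with 35.2% G and C against 62.0% for Col1a2 and 66.0% for Col23a1, held a TATAAA match 117 to 112 bases before the start. In the Col23a1 window GGGCGG lay on the minus strand 11 to 6 bases before the start, so that it reads CCGCCC above. Promoter entries were matched for 35 of the 44 collagen genes, not for Col1a1, Col2a1, Col4a3, Col5a2, Col9a3, Col12a1, Col14a1, Col22a1 or Col26a1. GGGCGG occurred upstream of 21 of the 35, CCAAT of 13 and TATAAA of 5, and the shares among all 32851 windows of that length were 32.7%, 33.8% and 12.4%. The 35 genes had 38 windows and a gene counted if any of its windows matched, while the shares are of single windows. A match is only a run of letters and says nothing about a bound factor.

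After filtering, 9378, 10524 and 11887 cells remained in the PBS, papain and papain+LND libraries, with 79971740, 82918339 and 84998730 UMIs (unique molecular identifiers, 1 for each captured molecule) and medians of 7352.5, 6547 and 5823 UMIs per cell. Wherever 3 values follow each other below, they are in this order. Ribosomal Rn18s transcripts took 0.877%, 3.66% and 3.51% of the UMIs, and female cells made up 56.8%, 73.2% and 83.1% of the cells that could be assigned a sex, so the libraries differ in RNA composition and in sex as well as in treatment. The libraries shared 22 to 38 cell barcodes per pair, under 0.4% of either library. In the submitters' labels the papain library carries the library name "Fibroblast", while its title and treatment label give the model and papain. Levels are CPM, a gene's UMIs scaled to the total UMIs of the same cell type and library, and a gene was called higher or lower where the levels differed at least 2-fold with at least 20 UMIs over both libraries. With 1 library per group there was no test between conditions, and the 95% intervals given cover counting error only. Both comparisons, papain against PBS and papain+LND against papain, use the papain library, so their ratios are not independent.

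Collagen transcripts as a whole made up more of the papain library than of the PBS library, and more again of the papain+LND library. Over all cells they numbered 41598, 87084 and 127278 UMIs, or 520, 1050 and 1497 CPM, a log2 ratio of 1.01 for papain against PBS (95% interval 0.997 to 1.03) and of 0.51 for papain+LND against papain (0.50 to 0.52). All 44 genes had at least 20 UMIs in both comparisons. Papain against PBS, 26 were higher and 0 lower, where 10.2% of all genes tested were higher and 5.92% lower, and the median log2 ratio was 1.29 for the collagens and -0.02 for all genes. The largest ratios were those of Col6a5 (4, 139 and 133 UMIs, 4.90), Col2a1 (59, 904 and 458 UMIs, 3.87), Col28a1 (14, 168 and 122 UMIs, 3.49), Col6a6 (3.20), Col6a4 (3.08), Col11a1 (2.86) and Col8a2 (2.52). Col6a2, Col8a1, Col5a2, Col12a1, Col6a1, Col14a1, Col5a1, Col3a1 and Col4a6 followed between 2.29 and 1.51, and Col17a1, Col6a3, Col4a5 and Col5a3 between 1.41 and 1.34. Col1a2 (0.84) and Col1a1 (0.58), which have the most UMIs of all collagens, stayed within 2-fold. The fibrillar group stood at 242, 492 and 924 CPM, and the other groups differed less between the papain libraries: basement membrane collagens at 96.3, 159 and 170 CPM, cartilage collagens at 46.0, 84.2 and 85.2 CPM, and the remaining collagens at 135, 315 and 318 CPM.

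These sums over all cells mix how many cells of each type a library held with how much each cell contained. Fibroblast-like cells numbered 87, 269 and 324 (0.928%, 2.56% and 2.73% of cells), pericyte-like cells 53, 170 and 176, chondrocyte-like cells 4, 78 and 98 and osteoblast-like cells 10, 19 and 68. Osteoblast-like cells, the bone-forming cells that make type I collagen in bulk, held 41.0%, 15.7% and 50.6% of all fibrillar collagen UMIs. Without them the log2 ratio of all collagens over all cells was 1.22 for papain against PBS and 0.06 for papain+LND against papain.

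**Figure D1:**
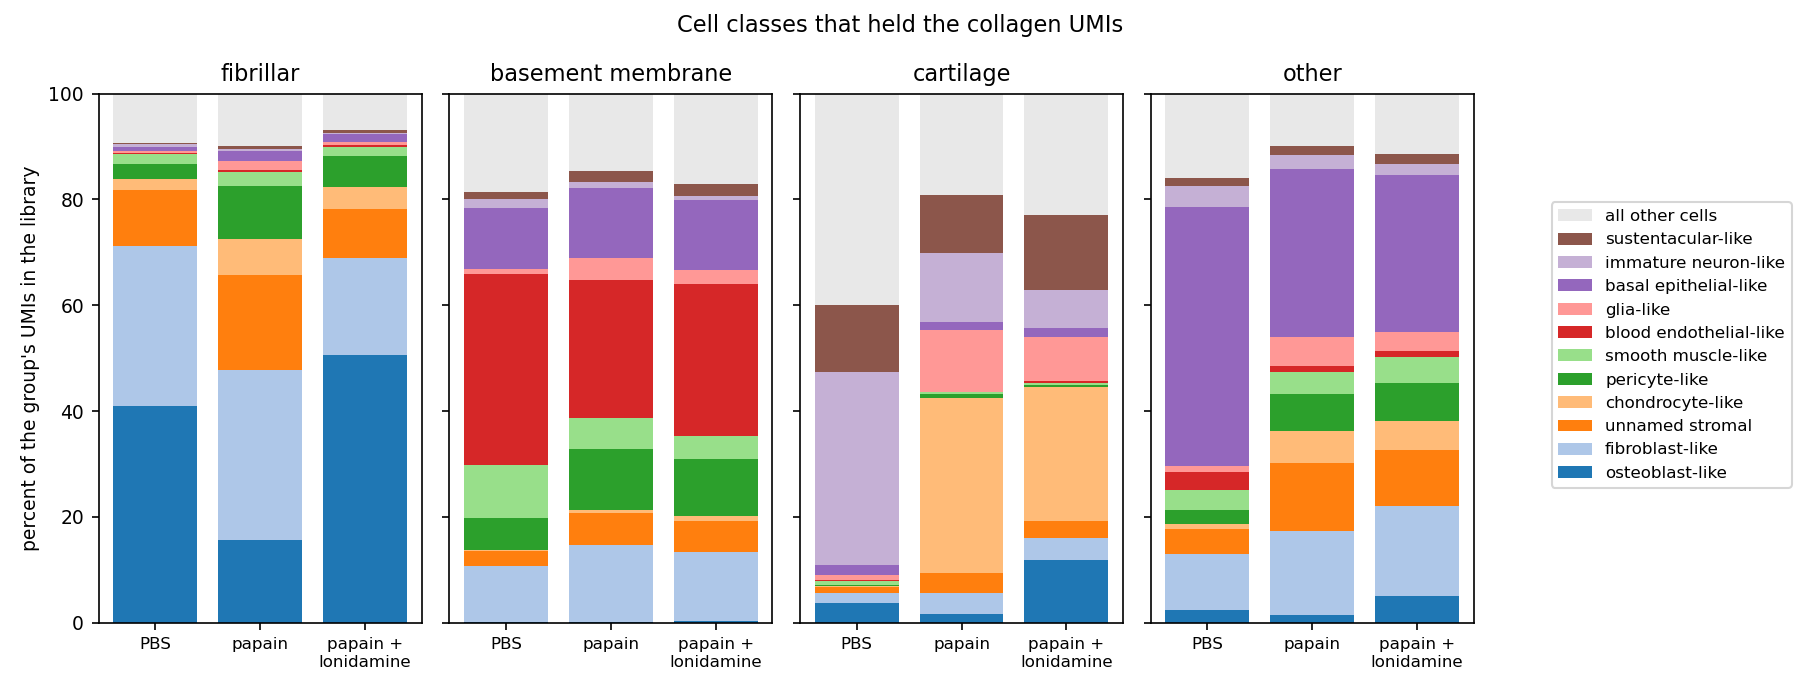
Share of each collagen group's UMIs that came from each cell type, as stacked percentages for the PBS, papain and papain+LND libraries. Osteoblast-like cells supplied 41.0%, 15.7% and 50.6% of the fibrillar UMIs, and blood endothelial-like cells 36.1%, 26.1% and 28.7% of the basement membrane UMIs.

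Over all cells, 5 collagens were higher and 1 lower for papain+LND against papain, where 2.9% of all genes tested were higher and 2.08% lower. Col1a1, 1 of the chains of type I collagen, had 7664, 11865 and 28959 UMIs (log2 ratio 1.25 for papain+LND against papain), and 52.5%, 27.7% and 65.5% of them were in osteoblast-like cells. Col1a2, its partner chain, had 7608, 14084 and 31778 UMIs (1.14). In the male cells, of which 1, 2 and 3 were osteoblast-like, the ratio for papain+LND against papain was -0.38 for Col1a1 and -0.14 for Col1a2. Col22a1, which marks tissue junctions, had 28, 25 and 102 UMIs (1.97), of which osteoblast-like cells held 24, 16 and 87. Col10a1, the collagen of hypertrophic cartilage, had 15, 39 and 167 UMIs (2.05), but 141 of the 167 were in 1 cell, and without the cell of most UMIs in each library the ratio was -0.42. The remaining call upward was Col6a6 (7, 71 and 158 UMIs, 1.11), and Col2a1 was lower (59, 904 and 458 UMIs, -1.02).

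Levels were then compared within cell types, among them fibroblasts and the mural cells of vessels. Cells were clustered without any collagen gene, and a cluster was named only from markers that are not collagens, so the collagen levels took no part in forming the cell types.

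**Figure D2:**
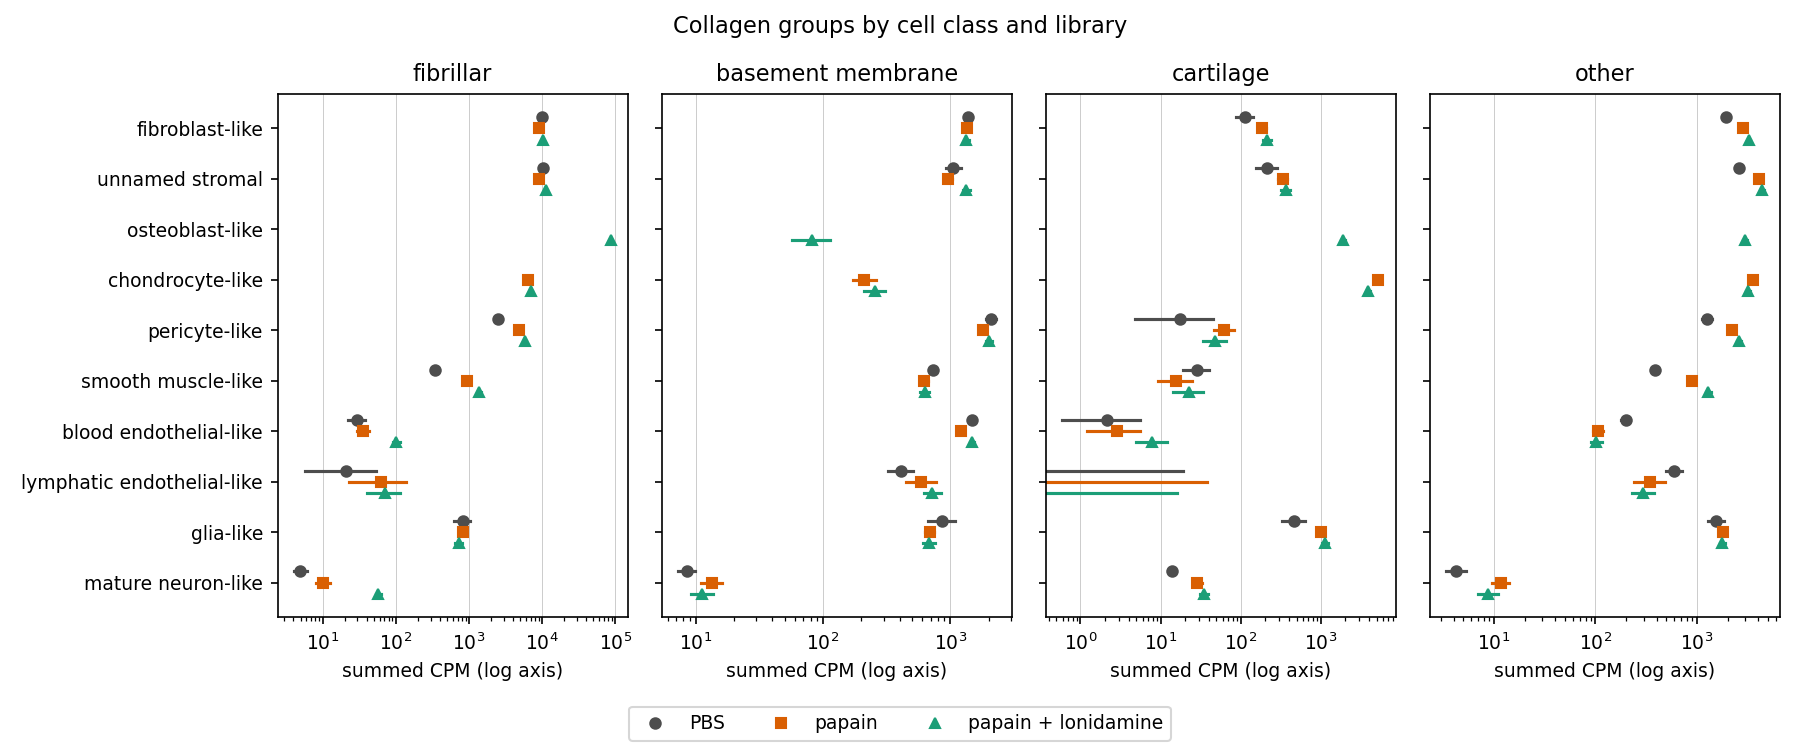
Summed level of the 4 collagen groups in 10 cell types, in CPM on a log axis, with 1 point per library and lines for 95% Poisson intervals; types with fewer than 20 cells in a library have no point there. Fibrillar collagen lies at 9843, 9056 and 10100 CPM in fibroblast-like cells and at 2489, 4859 and 5844 CPM in pericyte-like cells.

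Fibroblast-like cells were defined by 8 markers, Dcn and Pdgfra among them, all of which were detected in each library, with a summed level of 16370, 9305 and 9002 CPM. Most of that sum was Dcn (14013, 7452 and 6657 CPM), and other markers went the other way, Pdgfra at 269, 407 and 526 CPM, Dpt at 26.9, 204 and 505 CPM and Pi16 at 1.68, 16.6 and 98.4 CPM. The fibrillar collagens of these cells summed to 9843, 9056 and 10100 CPM, a log2 ratio of -0.12 for papain against PBS (-0.16 to -0.08) and 0.16 for papain+LND against papain (0.12 to 0.19). The basement membrane group stood at 1391, 1343 and 1335 CPM, the cartilage group at 114, 185 and 212 CPM and the remaining collagens at 1934, 2867 and 3261 CPM, the last with a log2 ratio of 0.57 for papain against PBS (0.47 to 0.66). The sign of the fibrillar ratio did not hold across definitions of these cells: papain against PBS it was 0.35 in male cells and 0.27 in the cluster led by Mfap5, against -0.22 in female cells. Rn18s took 1.11%, 6.07% and 6.06% of the UMIs in this type, and with totals that left out ribosomal, mitochondrial and haemoglobin transcripts the fibrillar ratio was -0.06.

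The main type I and III genes had the highest collagen levels here and passed the 2-fold rule in neither comparison. Col1a1 stood at 2971, 2610 and 2776 CPM, Col1a2 at 3732, 3484 and 4161 CPM, and Col3a1 at 2540, 2157 and 2294 CPM. The ratios for papain against PBS were -0.19, -0.10 and -0.24, and those for papain+LND against papain 0.09, 0.26 and 0.09. Type V genes, whose products nucleate type I fibrils, were unlike each other: Col5a1 stood at 99.1, 160 and 195 CPM and Col5a2 at 407, 596 and 645 CPM, while Col5a3 stood at 90.7, 47.0 and 26.0 CPM.

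Of the 29 collagens with at least 20 UMIs in fibroblast-like cells for papain against PBS, 5 were higher and 1 lower, where 8.87% of all genes tested were higher and 8.38% lower. Their median log2 ratio was 0.20, and that of all genes was -0.08. The largest in counts was Col12a1, which encodes a collagen that coats fibrils and is known from tissue under mechanical load. It had 99, 713 and 824 UMIs, or 166, 493 and 579 CPM, in 35, 149 and 211 of the cells, a log2 ratio of 1.56 for papain against PBS (1.26 to 1.89) and 0.23 for papain+LND against papain. The level was thus low in the PBS library and high in both papain libraries.

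The 3 long collagen VI chains, Col6a4, Col6a5 and Col6a6, can take the place of the Col6a3 chain in the heterotrimer. They had at most 4 UMIs each in the 87 PBS fibroblast-like cells, where the papain libraries held 269 and 324 such cells. Col6a5 had 1, 59 and 56 UMIs in 1, 20 and 18 cells, or 1.68, 40.8 and 39.4 CPM (log2 ratio 4.03, 2.07 to 9.93). Col6a6 had 2, 20 and 48 UMIs, with a log2 ratio of 1.76 for papain against PBS (0.00 to 5.18) and 1.27 for papain+LND against papain (0.51 to 2.12), and Col6a4 had 4, 30 and 36 UMIs (1.48, 0.12 to 3.59). In female cells alone the Col6a4 ratio was 0.03. The common chains did not pass the rule: Col6a1 stood at 457, 678 and 649 CPM, Col6a2 at 245, 439 and 427 CPM and Col6a3 at 348, 265 and 364 CPM. Over all cells Col6a4 had 11, 100 and 109 UMIs.

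Col7a1, the anchoring fibril collagen that ties basement membrane to the tissue below, had 1, 57 and 18 UMIs in fibroblast-like cells. Its log2 ratio was 3.98 for papain against PBS (2.02 to 9.88) and -1.61 for papain+LND against papain (-2.49 to -0.85), but 40.4% of the papain UMIs were in 1 cell, and with each library clustered alone the second ratio was 1.13. Col9a2, a cartilage collagen, was the lower gene, with 12, 9 and 8 UMIs (-1.68, -3.12 to -0.32), and it was within 2-fold under 2 of 8 alternative settings.

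Several genes lay just inside the 2-fold limit. Col23a1 stood at 38.6, 77.5 and 146 CPM (log2 ratios 0.98 and 0.91), Col11a1 at 72.2, 140 and 168 CPM and Col8a2 at 111, 204 and 268 CPM, while Col18a1, whose C-terminal fragment is endostatin, stood at 133, 78.2 and 45.0 CPM (-0.77 and -0.79). Between the papain libraries, 1 gene of 28 was higher with LND (Col6a6) and 1 lower (Col7a1), where 2.38% of all genes tested were higher and 2.22% lower.

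The largest cluster of fibroblast-like cells was not the same in the PBS library as in the papain libraries, and the collagen levels of the clusters differ. The cluster led by Mfap5, Cilp and Myoc held 62, 89 and 42 cells, the cluster led by Dpep1 and Gdf10 held 18, 117 and 205, and a cluster of low UMI count held 7, 63 and 77. In the Mfap5 cluster fibrillar collagens summed to 9219, 11128 and 11072 CPM, Col12a1 stood at 84.5, 313 and 235 CPM (log2 ratio 1.87 for papain against PBS), Col6a1 at 415, 778 and 588 CPM and Col6a2 at 229, 467 and 443 CPM (1.02). In the Dpep1 cluster, whose 18 PBS cells are below the 20 set for a ratio, fibrillar collagens stood at 11702, 8881 and 10272 CPM and Col12a1 at 391, 644 and 684 CPM. Col12a1 was thus lowest in the PBS library in both clusters. Col23a1 was 121, 128 and 167 CPM in the Dpep1 cluster and 7.24, 5.86 and 26.7 CPM in the Mfap5 cluster, and the clusters' shares of the class differed between libraries. Col18a1 had 63, 63 and 23 UMIs in the Mfap5 cluster, with log2 ratios of -0.30 for papain against PBS and 0.016 for papain+LND against papain.

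**Figure D3:**
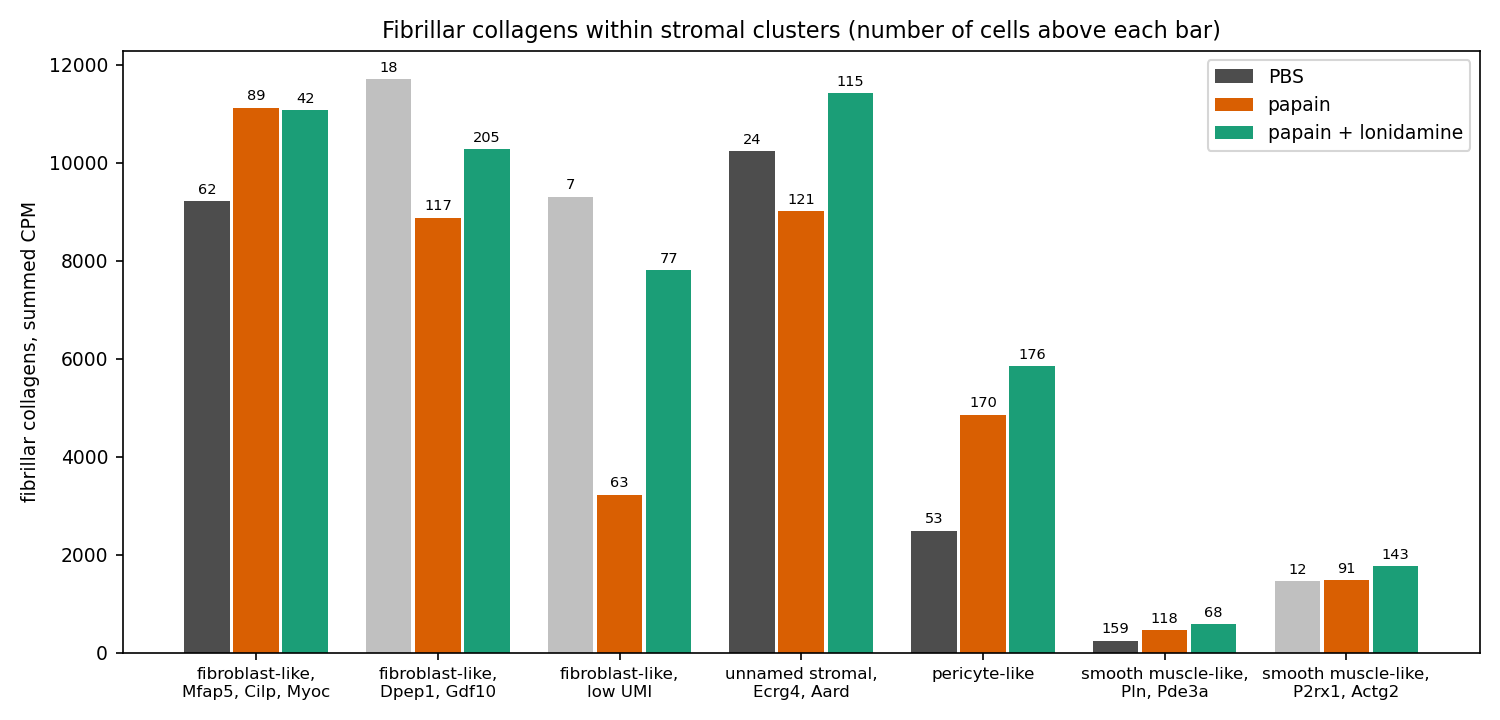
Summed fibrillar collagen level, in CPM, in the fibroblast-like clusters, the unnamed stromal cluster, the pericyte-like cluster and the smooth muscle-like clusters, 1 bar per library with its number of cells above; pale bars hold fewer than 20 cells. The Mfap5 cluster stands at 9219, 11128 and 11072 CPM and the pericyte-like cluster at 2489, 4859 and 5844 CPM.

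A further stromal cluster, led by Ecrg4 and Aard and holding 24, 121 and 115 cells, passed 5 of the 8 fibroblast markers but was left unnamed, since its 10 leading genes held 0 of them and 1 marker of another type (Bpifa2). Its fibrillar collagens stood at 10234, 9018 and 11428 CPM, levels like those of the fibroblast-like cells. Of 24 collagens, 7 were higher for papain against PBS and 0 lower, where 9.23% and 9.11% of all genes tested were, and 6 of the 7 were collagen VI chains or Col7a1. Col6a2 stood at 269, 743 and 696 CPM (log2 ratio 1.45) and Col6a1 at 563, 1208 and 1052 CPM (1.09). Col6a5 had 0, 61 and 18 UMIs, at least 5.03-fold higher in the papain library than a PBS level of 3 UMIs, with 37.7% of the papain UMIs in 1 cell. Col6a4 had 2, 35 and 31 UMIs (1.81), Col6a6 3, 32 and 75 UMIs (1.20) and Col7a1 6, 77 and 34 UMIs (1.56). The remaining gene was Col15a1, at 19.9, 55.5 and 129 CPM (1.32). Between the papain libraries, Col6a6 (1.55) and Col15a1 (1.21) were higher and Col6a5 (-1.40) lower with LND among 26, against 3.39% and 3.38% of all genes tested.

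Pericyte-like cells, which wrap capillaries, had higher fibrillar collagen levels in both papain libraries than in the PBS library. The group had 568, 4053 and 4502 UMIs, or 2489, 4859 and 5844 CPM, a log2 ratio of 0.96 for papain against PBS (0.84 to 1.09) and 0.27 for papain+LND against papain (0.20 to 0.33). Across the alternative settings run the first ratio lay between 0.94 and 1.13. Basement membrane collagens stood at 2082, 1814 and 2023 CPM (-0.20, -0.35 to -0.05), so the groups did not move alike. All these cells came from 1 cluster, of 53, 170 and 176 cells.

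In pericyte-like cells 8 of 24 collagens were higher for papain against PBS and 2 lower, where 8.55% and 8.71% of all genes tested were, and the median log2 ratio was 0.73 for the collagens and -0.10 for all genes. Col3a1, the type III chain abundant in vessel walls, stood at 1161, 2426 and 2763 CPM (1.06, 0.88 to 1.25). Col1a1 had 47, 431 and 472 UMIs, or 206, 517 and 613 CPM (1.31, 0.89 to 1.79), while its partner Col1a2, at 548, 903 and 1249 CPM (0.72), stayed inside the limit. Col5a2 stood at 316, 657 and 843 CPM (1.05), and Col5a1 at 92.0, 173 and 177 CPM (0.88). For each of these fibrillar genes the PBS library was lowest and the papain+LND library highest.

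The gene with the largest ratio was Col14a1, encoding a fibril-surface collagen of mature connective tissue. It had 4, 176 and 219 UMIs in 4, 57 and 56 cells, or 17.5, 211 and 284 CPM (3.42, 2.21 to 5.48). After each cell was thinned to 2000 UMIs, which left out 8, 18 and 23 shallower cells, Col14a1 was found in 0 of 45 PBS cells, which allows a share of up to 6.67% of cells with a UMI at that depth and sets no limit on cells expressing the gene, and in 20.4% and 24.8% of the cells of the papain libraries, against 7.55% of the PBS cells before thinning. Mature olfactory neuron-like cells, which should lack it, had a Col14a1 UMI in 0%, 0.0908% and 0.163% of thinned cells. Before thinning, 226, 153 and 444 of those cells were in a cluster led by Obp2a and other odorant-binding protein and Mup genes. Col1a1 was found in 26.7%, 42.8% and 54.2% of thinned pericyte-like cells and in 0.254%, 0.454% and 1.14% of thinned neuron-like cells.

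Col8a1, a short-chain collagen of vessel walls, stood at 149, 343 and 422 CPM (1.18) and Col6a2 at 259, 596 and 684 CPM (1.19). Col7a1 had 2, 41 and 46 UMIs (2.18, 0.54 to 5.58) and Col11a1 1, 22 and 16 UMIs (2.04, -0.04 to 7.96), and Col12a1, with 3, 25 and 37 UMIs, fell just short of the limit. The lower genes were Col13a1, with 11, 15 and 20 UMIs (-1.44), and Col25a1, with 7, 13 and 4 UMIs (-1.02), both transmembrane collagens with few counts. Col13a1 had a ratio of 1.36 under a gate on each cell's own markers, and Col25a1 was within 2-fold under 4 of 6 settings. The main basement membrane chains, Col4a1 at 1104, 850 and 972 CPM and Col4a2 at 815, 779 and 827 CPM, differed by less than 2-fold. None of 24 collagens passed for papain+LND against papain, where 2.01% and 2.23% of all genes tested did.

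Markers of other cell types moved in the pericyte-like cells too. The summed level of the 8 fibroblast markers was 52.6, 55.1 and 88.3 CPM, with 1, 5 and 6 of 8 detected and Clec3b at 0 in all libraries, against 16370, 9305 and 9002 CPM in fibroblast-like cells. The smooth muscle markers summed to 6591, 11888 and 10940 CPM and the pericyte markers to 11832, 15968 and 19993 CPM, and their part in the collagen ratios was not tested. The pericyte markers went both ways: Rgs5, which made up most of the sum, stood at 8436, 12920 and 16883 CPM, while Kcnj8 stood at 289, 110 and 68.8 CPM, Abcc9 at 508, 287 and 177 CPM and Higd1b at 824, 513 and 493 CPM. Rn18s took 1.71%, 7.22% and 7.82% of the UMIs, and with totals that left out ribosomal, mitochondrial and haemoglobin transcripts the fibrillar ratio was 1.03.

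In vascular smooth muscle-like cells, taken as a class, the fibrillar level was lower than in pericyte-like cells and differed more between libraries. The class pools clusters whose shares differed between the libraries, and within each cluster the fibrillar difference was smaller, as given below. Fibrillar collagens stood at 348, 939 and 1384 CPM (log2 ratio 1.43, 1.26 to 1.61, then 0.56) and the remaining collagens at 387, 886 and 1290 CPM (1.20, then 0.54), while basement membrane collagens stood at 735, 627 and 628 CPM. Of 21 collagens, 10 were higher for papain against PBS and 2 lower, where 8.17% and 2.65% of all genes tested were, and the medians were 0.78 for the collagens and 0.06 for all genes. Col3a1 stood at 86.4, 395 and 591 CPM (2.18, 1.86 to 2.53), Col5a2 at 39.9, 138 and 194 CPM (1.78) and Col1a1 at 48.4, 140 and 203 CPM (1.52). Collagen VI, which anchors muscle cells in their matrix, was higher in all 3 common chains: Col6a1 at 99.7, 252 and 299 CPM (1.33), Col6a2 at 73.1, 166 and 227 CPM (1.18) and Col6a3 at 83.6, 206 and 255 CPM (1.30). Col12a1 had 7, 35 and 48 UMIs (2.04), Col16a1 had 5, 25 and 28 UMIs (2.01), and Col23a1 stood at 12.3, 51.1 and 56.6 CPM (2.01). Col27a1, with 28, 11 and 15 UMIs (-1.51), and Col13a1, with 29, 15 and 8 UMIs (-1.13), were lower.

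The clusters behind the smooth muscle-like cells had different shares in the 3 libraries. A cluster led by Pln and Pde3a held 159, 118 and 68 cells, most of those of the PBS and papain libraries, and a cluster led by P2rx1 and Actg2 held 12, 91 and 143, most of those of the papain+LND library. Fibrillar collagens stood at 246, 456 and 585 CPM in the Pln cluster (log2 ratio 0.89) and at 1458, 1488 and 1763 CPM in the P2rx1 cluster, where the PBS value comes from 12 cells. Within the Pln cluster Col3a1 stood at 42.5, 119 and 197 CPM (1.48) and Col1a1 at 24.9, 52.6 and 60.6 CPM (1.07), and Col6a3 at 51.9, 105 and 100 CPM (1.02). Within the P2rx1 cluster Col3a1 stood at 565, 709 and 778 CPM and Col1a1 at 305, 240 and 270 CPM. Col1a1 and Col6a3 were each within 2-fold under 3 of 12 settings, Col14a1 and Col6a2 under 2 and Col6a1 under 1.

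Col14a1 was the smooth muscle-like collagen that differed most between the papain libraries. It stood at 29.4, 69.2 and 273 CPM, a log2 ratio of 1.97 for papain+LND against papain (1.62 to 2.35). In the P2rx1 cluster, of 12, 91 and 143 cells, Col14a1 had 29, 71 and 280 UMIs. Within that cluster the papain library thus had fewer of them per cell than the PBS library. In the Pln cluster, of 159, 118 and 68 cells, it had 2, 13 and 0 UMIs. Under the gate on each cell's own markers the ratio for papain+LND against papain was 0.60. Col8a1 (27, 40 and 70 UMIs, 1.04) was also higher in that comparison, within 2-fold under 6 of 11 settings, and Col4a6 (13, 18 and 7 UMIs, -1.06) lower, where 2.51% and 1.49% of all genes tested were higher and lower. Fibroblast markers in these cells summed to 4.75, 32.1 and 58.5 CPM, with 1, 4 and 5 of 8 detected, and their part was not tested. Rn18s took 1.37%, 5.65% and 6.40% of the UMIs.

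The collagen UMIs of blood endothelial-like cells were mainly of the basement membrane group. It stood at 1487, 1219 and 1483 CPM, a log2 ratio of -0.29 for papain against PBS (-0.36 to -0.21) and 0.28 for papain+LND against papain (0.22 to 0.35), and in male cells the second ratio was -0.03. Col4a1 stood at 450, 336 and 587 CPM, Col4a2 at 353, 263 and 335 CPM, Col15a1 at 309, 271 and 308 CPM and Col18a1 at 370, 339 and 247 CPM, none of which passed the rule. In the cluster led by Gpihbp1 and Rbp7 (59, 96 and 112 cells) Col4a1 stood at 827, 793 and 1296 CPM and in the cluster led by Selp and Vwf (11, 102 and 159 cells), genes known from venules, the whole group stood at 2196, 1289 and 1250 CPM. Without the Selp cluster the ratio for papain+LND against papain was 0.44. Of 10 collagens, 1 was higher for papain against PBS and 1 lower, where 6.45% and 6.53% of all genes tested were.

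The lower gene was Col23a1, a transmembrane collagen that binds cells to the matrix, whose upstream sequence is given above. It had 231, 44 and 46 UMIs, or 124, 15.6 and 16.4 CPM, a log2 ratio of -2.98 for papain against PBS (-3.49 to -2.52), and it was past 2-fold under all 12 alternative settings run, with a smallest size of -2.02. The PBS library was high and both papain libraries were low, and Rn18s took 1.66%, 4.86% and 5.17% of the UMIs of these cells. Most of the PBS signal was in the cluster led by Dnase2b and Cyp2e1 (81, 112 and 104 cells), where Col23a1 had 200, 17 and 12 UMIs, or 160, 12.4 and 12.6 CPM. A cluster of low UMI count had 23, 8 and 3 UMIs.

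The same gene differed the other way in smooth muscle-like and glia-like cells. It stood at 12.3, 51.1 and 56.6 CPM in smooth muscle-like cells (2.01, 1.17 to 3.04) and at 88.4, 238 and 317 CPM in glia-like cells (1.34), while in pericyte-like cells, at 26.3, 31.2 and 29.9 CPM (0.16), it was within 2-fold. In lymphatic endothelial-like cells, of which there were 37, 29 and 57, it stood at 585, 313 and 256 CPM (-0.89). Basal epithelial-like cells, which held 77.8%, 57.3% and 47.8% of all Col23a1 UMIs, stood at 253, 70.2 and 57.2 CPM (-1.85). Within the smooth muscle-like clusters Col23a1 had 8, 6 and 4 UMIs in the Pln cluster and stood at 56.5, 98.7 and 77.7 CPM in the P2rx1 cluster.

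**Figure D4:**
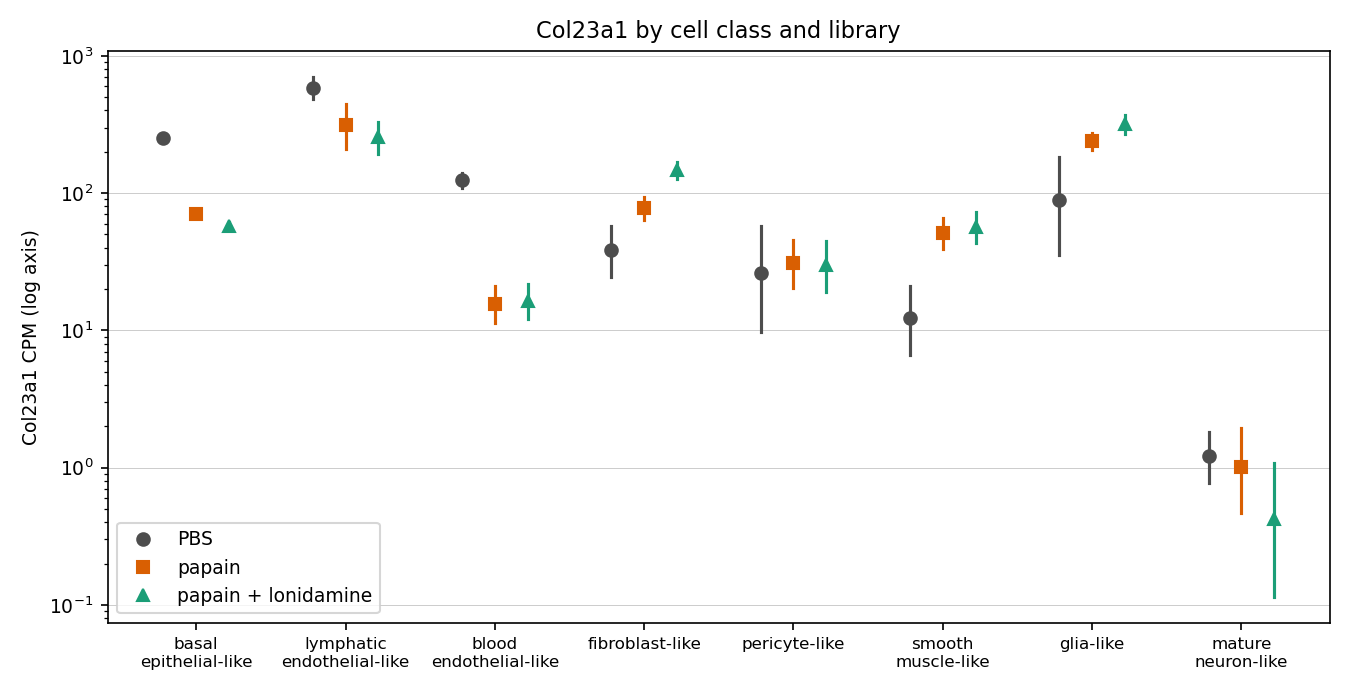
Col23a1 level in 8 cell types, in CPM on a log axis, with 1 point per library and lines for 95% Poisson intervals. Blood endothelial-like cells stand at 124, 15.6 and 16.4 CPM, while smooth muscle-like cells, which pool clusters of different shares in the libraries, stand at 12.3, 51.1 and 56.6 CPM.

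Fibrillar collagens in blood endothelial-like cells were few, at 29.5, 36.1 and 102 CPM. Papain+LND against papain, Col1a1 at 3.75, 3.53 and 23.2 CPM (2.66), Col1a2 at 6.43, 7.42 and 32.5 CPM (2.11) and Col3a1 at 5.36, 12.4 and 30.0 CPM (1.27) were higher among 12 collagens, where 1.93% of all genes tested were higher and 1.35% lower. Col1a1 showed a like pattern in cells that should not make it: 1.96, 2.49 and 32.8 CPM in mature olfactory neuron-like cells, 2.63, 7.88 and 26.6 CPM in neutrophil-like cells and 2.45, 3.23 and 15.1 CPM in basal epithelial-like cells. Of the 2610, 1233 and 1408 neuron-like cells, 226, 153 and 444 were in a cluster led by Obp2a, Obp1a and Mup4. The class may thus not be neurons alone, and the part of that cluster in its levels was not tested. In the papain+LND library the endothelial level of Col1a1 was below that of the neuron-like cells, and it is not read as endothelial expression. For Col1a2 the neuron-like cells had 1.27, 3.17 and 20.2 CPM. For Col3a1 the neuron-like cells had 0.899, 2.60 and 2.21 CPM, and 60% of the papain endothelial UMIs (10, 35 and 84 in all) were in 1 cell. Without the cell of most UMIs in each library the Col3a1 ratio for papain against PBS, 1.16 in full, was 0.54.

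In lymphatic endothelial-like cells 4 collagens had enough counts. Col18a1 was higher for papain against PBS (67.9, 198 and 216 CPM, log2 ratio 1.53) and Col4a2 lower (34, 6 and 38 UMIs, -1.41), where 9.53% and 16.3% of all genes tested were. Col4a1, normally paired with Col4a2 in the same protein, stood at 157, 313 and 317 CPM, just short of the limit. Col4a2 was again higher for papain+LND against papain (1.32), where 6.26% of all genes tested were higher and 2.99% lower.

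Glia-like cells, which ensheath olfactory and other nerves and are kept here because they lie in the same connective tissue, numbered 34, 185 and 144. Their cartilage-type collagens stood at 467, 1008 and 1138 CPM (log2 ratio 1.09, 0.63 to 1.63), while fibrillar collagens stood at 821, 831 and 721 CPM. Of 25 collagens 5 were higher and 1 lower for papain against PBS, where 14% and 11.7% of all genes tested were, and the median log2 ratio was -0.09 for both. Col11a1 had 13, 385 and 316 UMIs, or 164, 473 and 588 CPM (1.48), Col12a1 stood at 202, 551 and 534 CPM (1.40), and Col9a2 and Col11a2 had 2, 83 and 35 UMIs (1.70) and 3, 78 and 67 UMIs (1.13). Col20a1 was lower at 265, 73.8 and 59.6 CPM (-1.87, -2.58 to -1.05). The larger cluster of these cells led by Fabp7 held 6, 84 and 76, and within it Col11a1 stood at 311, 559 and 675 CPM, with the PBS value from those 6 cells. Another cluster led by Fabp7, of low UMI count, held 12, 53 and 31 cells. Col11a1 stood at 144, 259 and 553 CPM there, with 2 UMIs in the PBS library. Col28a1, a collagen of peripheral nerve sheaths, stood at 126, 171 and 169 CPM in these cells, and 71.4%, 82.7% and 74.6% of all its UMIs were there. None of 25 passed for papain+LND against papain, where 2.93% and 2.07% of all genes tested did.

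Chondrocyte-like cells held 0.272%, 33.0% and 25.2% of the UMIs of the cartilage group. The PBS library held 4 of these cells, so the comparison within them is between the papain libraries (78 and 98 cells). Col2a1, the main collagen of cartilage, had 0, 813 and 400 UMIs, found in 14 and 26 of the cells of the papain libraries, at 1852 and 863 CPM (log2 ratio -1.10). Its fibril partners differed less: Col11a1 stood at 1205 and 988 CPM, Col9a1 at 269 and 278 CPM, Col9a2 at 542 and 354 CPM and Col9a3 at 469 and 274 CPM. Of 24 collagens, 2 were higher (Col10a1, from 1 cell, and Col14a1 with 6 and 32 UMIs, 2.24) and 1 lower, where 4.11% and 2.85% of all genes tested were. In the PBS library 36.4% of the UMIs of the cartilage group came from immature olfactory neuron-like cells, against 13.1% and 7.08% in the others, and Col9a2 had 89.3%, 58.0% and 55.4% of its UMIs there. Col9a1 came mainly from sustentacular-like cells, named for the supporting cells of the olfactory epithelium, with 70.8%, 67.7% and 66.7% of its UMIs. The group is named for the best known tissue of its proteins.

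In osteoblast-like cells, too few in the PBS and papain libraries for a ratio, Col1a1 stood at 39550, 26447 and 41892 CPM and Col1a2 at 33818, 18746 and 38635 CPM. One cell held 51.3%, 67.8% and 17.5% of the Col1a1 UMIs of these cells. Col3a1, which bone makes little of, stood at 2576, 4471 and 4923 CPM.

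Some collagens were mostly outside the stroma. Col17a1, the hemidesmosomal collagen that fixes basal epithelial cells to their basement membrane, had 2337, 6459 and 6636 UMIs, of which 89.8%, 89.7% and 89.5% were in basal epithelial-like cells, at 206, 374 and 373 CPM there. Those cells numbered 996, 1744 and 1945. Col7a1, which lies under the same cells, had 76.8%, 72.8% and 79.2% of its UMIs in them and Col25a1 66.6%, 72.3% and 67.9%. Of 26 collagens in basal epithelial-like cells, 9 were higher and 2 lower for papain against PBS, where 7.26% and 8.03% of all genes tested were. Col5a2, here outside the fibroblasts that usually carry it, had 88, 649 and 696 UMIs in 66, 400 and 395 of these cells, or 8.63, 41.9 and 43.7 CPM (log2 ratio 2.27), against 0.370, 1.47 and 1.47 CPM in mature olfactory neuron-like cells. The others higher were Col8a1 (2, 27 and 49 UMIs, 2.86), Col14a1 (4, 30 and 47, 2.16), Col6a1, Col6a2, Col11a1, Col4a6 (28, 106 and 131, 1.30), Col3a1 and Col1a2, and Col27a1 (20, 11 and 22, -1.44) was lower beside Col23a1. Col8a1 and Col14a1 had fewer UMIs than Col1a2 in each library. Col8a1, Col14a1, Col6a1, Col6a2 and Col11a1 were not set against the neuron-like cells, so they are not read as expression by these epithelial-like cells. Between the papain libraries Col1a1 (25, 50 and 241 UMIs, 2.22) and Col1a2 (19, 59 and 164 UMIs, 1.43) were higher with LND among 28, where 3.42% of all genes tested were higher and 1.11% lower. The Col1a1 level there, 15.1 CPM with LND, was below the 32.8 CPM of the neuron-like cells. Col1a2, at 1.86, 3.81 and 10.3 CPM, was near or below their 1.27, 3.17 and 20.2 CPM, so neither gene is read as expression by these epithelial-like cells. Col3a1, at 0.981, 2.19 and 2.13 CPM, also stood near the 0.899, 2.60 and 2.21 CPM of the neuron-like cells. As stated above, the neuron-like cells include the cluster led by Obp2a. Col17a1 and Col4a3 had fewer than 20 UMIs in every stromal type, and Col4a3 had 25, 26 and 31 over all cells. The other collagens within 2-fold over all cells in both comparisons with papain included Col24a1 (30, 35 and 45 UMIs), Col19a1 (39, 56 and 42), Col4a4 (65, 71 and 70), Col20a1 (109, 128 and 97), Col13a1 (217, 265 and 243), Col26a1 (294, 369 and 346), Col9a3 (840, 874 and 907) and Col18a1 (1740, 2306 and 2023). Col4a1, Col4a2, Col9a1, Col9a2, Col15a1 and Col23a1 were within it too. Col13a1, a transmembrane collagen at cell contacts, reached 291, 221 and 167 CPM in the endothelial cluster led by Gpihbp1 and Rbp7.

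Papain+LND was also set against PBS, a comparison that shares a library with each of the others. Over all cells 30 of 44 collagens were higher and 0 lower, where 12.4% and 7.6% of all genes tested were. In fibroblast-like cells 7 of 28 were higher and 3 lower, where 11.3% and 10.5% were: Col6a5 (3.98), Col6a6 (3.02), Col23a1 (1.89), Col12a1 (1.79), Col6a4 (1.76), Col8a2 (1.26) and Col11a1 (1.20) against Col9a2 (-1.81), Col5a3 (-1.80) and Col18a1 (-1.56). Those that lay just inside the limit for papain against PBS were thus past it here. Within the Mfap5 cluster the ratio was -0.29 for Col18a1, 1.52 for Col11a1 and 1.47 for Col12a1. Col23a1 had 3 PBS and 5 papain+LND UMIs in that cluster, too few for a ratio. In the Dpep1 cluster, of 18 PBS and 205 papain+LND cells, the Col23a1 levels given above differed by less than 2-fold. Pericyte-like cells had 9 of 21 higher and 0 lower, where 10% and 10.5% of all genes tested were: Col14a1 (3.85), Col7a1 (2.46), Col12a1 (1.67), Col1a1 (1.56), Col8a1 (1.48), Col5a2 (1.41), Col6a2 (1.39), Col3a1 (1.25) and Col1a2 (1.18). Smooth muscle-like cells had 13 of 21 higher and 1 lower, where 11.8% and 5.05% were, led by Col14a1 (3.19), Col3a1 (2.77) and Col12a1 (2.73), with Col13a1 (-1.76) lower. The 31 and 280 Col14a1 UMIs were mainly in the P2rx1 cluster, which held 12 PBS and 143 papain+LND cells. The unnamed stromal cluster had 7 of 23 higher and 0 lower (11% and 12% of all genes tested), led by Col6a6 (2.75) and Col15a1 (2.53). Blood endothelial-like cells had 3 of 11 higher and 1 lower (9.57% and 8.87%), with Col23a1 at -2.90. Lymphatic endothelial-like cells had 2 of 4 higher and 1 lower (13.2% and 14%), Col18a1 (1.63) and Col23a1 (-1.19) at the ends. Glia-like cells had 6 of 24 higher and 1 lower (16.2% and 10.4%), led by Col11a1 (1.79), Col23a1 (1.75) and Col11a2 (1.51), with Col20a1 at -2.16.

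Collagen chains that share a protein can be compared through the ratio of their UMIs, since 3′ counting gives each captured molecule 1 UMI whatever the gene's length, although capture can differ between genes. The ratio of Col1a1 to Col1a2, whose chains join 2 to 1 in type I collagen, was 0.796, 0.749 and 0.667 in fibroblast-like cells, 0.376, 0.572 and 0.491 in pericyte-like cells, 0.331, 0.642 and 0.598 in smooth muscle-like cells and 1.17, 1.41 and 1.08 in osteoblast-like cells. It was below 1 in the first 3 of these types and above 1 in the bone type in each library. The ratio of Col4a1 to Col4a2 was 1.27, 1.28 and 1.75 in blood endothelial-like cells, and between 1.05 and 1.38 in fibroblast-like, pericyte-like and smooth muscle-like cells. Col6a1 exceeded Col6a2 by 1.81, 1.15 and 1.10 times in pericyte-like cells and by 1.86, 1.54 and 1.52 times in fibroblast-like cells.

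Collagens need a set of enzymes and chaperones to fold, be trimmed and be cross-linked, and 50 such genes were followed beside them. In fibroblast-like cells 4 of 36 with enough counts were higher and 2 lower for papain against PBS, near the 8.87% and 8.38% of all genes tested. The higher genes were Fmod, a proteoglycan that binds fibrils (62.2, 229 and 251 CPM, log2 ratio 1.86), Bmp1, the protease that removes the C-terminal propeptide (40.3, 109 and 129 CPM, 1.41), Ogn, a small matrix proteoglycan (252, 574 and 827 CPM, 1.18), and the prolyl hydroxylase gene P4ha2 (7, 37 and 42 UMIs, 1.04). The lower genes were Serpinh1, the chaperone that holds the triple helix (1235, 571 and 591 CPM, -1.11), and Plod1, a lysyl hydroxylase (92.4, 36.7 and 43.6 CPM, -1.33). Papain+LND against papain, Pcolce2 (1.43) and Adamts3 (1.37) were higher among 40, with 8 and 22 and with 6 and 16 UMIs in the papain and papain+LND libraries.

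In pericyte-like cells 5 of 36 processing genes were higher and 1 lower for papain against PBS, where 8.55% and 8.71% of all genes tested were. Loxl2, a cross-linking oxidase, stood at 39.4, 167 and 177 CPM (2.01) and Adamts2, which removes the N-terminal propeptide, at 48.2, 175 and 173 CPM (1.80). The others were the cross-linking gene Loxl1 (3, 46 and 44 UMIs, 1.86), the receptor gene Itga10 (3, 32 and 28 UMIs, 1.34) and the hydroxylase gene P3h1 (5, 40 and 42 UMIs, 1.01), with the chaperone gene Fkbp14 lower (13, 18 and 18 UMIs, -1.42). Dcn, a fibril-binding proteoglycan and also a fibroblast marker, was the gene past the limit between the papain libraries (12, 25 and 58 UMIs, 1.31).

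In smooth muscle-like cells 8 of 36 processing genes were higher and 1 lower for papain against PBS, where 8.17% and 2.65% of all genes tested were. Loxl2 was again among the higher, at 12.3, 128 and 146 CPM (3.32), and the others were Dcn (2.17), Loxl3 (1.69), the collagen uptake receptor gene Mrc2 (1.56), Fkbp14 (1.31), Loxl1 (1.10), Itga10 (1.05) and Bmp1 (1.03), with 5 to 24 UMIs each in the PBS library. Ogn was lower (-1.55). Between the papain libraries Dcn was higher (28 and 50 UMIs, 1.07) and Lox, another cross-linking oxidase, lower with LND (54 and 16 UMIs, -1.48).

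In the unnamed stromal cluster 1 of 35 processing genes was higher and 7 were lower for papain against PBS, where 9.23% and 9.11% of all genes tested were. Sparc, a collagen-binding chaperone, stood at 6221, 3025 and 4690 CPM (-1.04) and Serpinh1 at 1506, 606 and 635 CPM (-1.31). P3h1 (-1.50), Fkbp14 (-1.31), Plod1 (-1.25), Plod3 (-1.11) and Fkbp10 (-1.03) had 11 to 25 UMIs each in the PBS library, and Plod2 was higher (1, 22 and 28 UMIs, 1.89). With LND against papain alone Aspn, a small proteoglycan, was lower (46 and 6 UMIs, -2.50). Over all cells 17 of 48 processing genes were higher and 1, Pcolce2 (-1.25), lower for papain against PBS, where 10.2% and 5.92% of all genes tested were, with Loxl2 (2.33), Ddr2 (1.83), Loxl1 (1.82), Loxl3 (1.80), Adamts3 (1.63), Bgn (1.61) and Adamts2 (1.43) at the largest ratios. The medians over these genes were 0.16 in fibroblast-like, 0.19 in pericyte-like, 0.34 in smooth muscle-like and -0.22 in the unnamed cells, beside -0.08, -0.10, 0.06 and -0.11 for all genes.

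**Figure D5:**
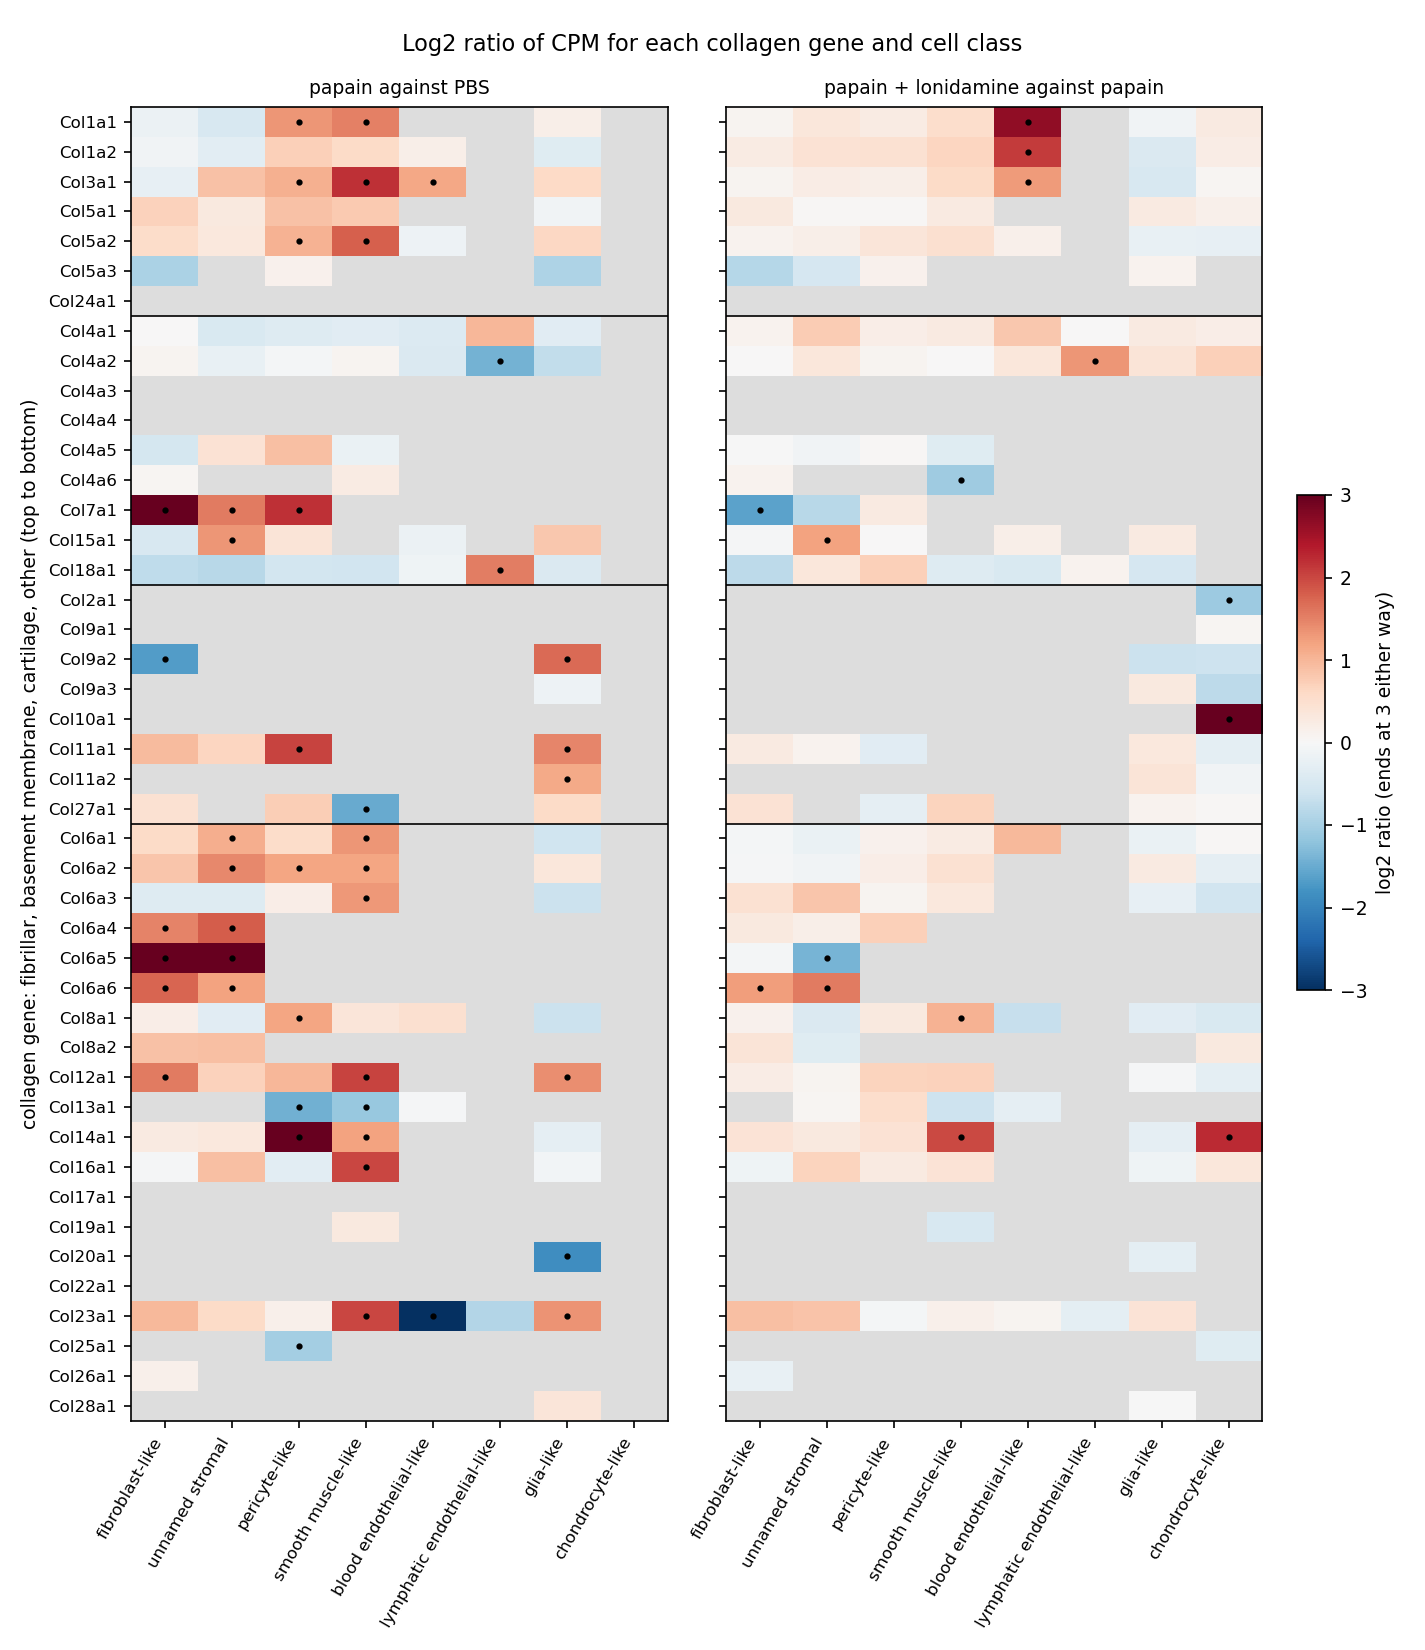
Log2 ratios of the 44 collagen genes in 8 cell types for papain against PBS and for papain+LND against papain, as a heat map with colour ending at 3 in either direction; grey marks fewer than 20 UMIs or 20 cells, and dots mark a ratio past 2-fold. Dots are most frequent for papain against PBS in the smooth muscle-like (10 higher, 2 lower) and pericyte-like (8 higher, 2 lower) cells, and the pericyte-like column has none for papain+LND against papain. The smooth muscle-like column pools clusters whose shares differed between the libraries.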

How the data were processed

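The deposited files were 10x matrices of raw UMI counts per gene and cell barcode for 3 libraries, made by the authors with Cell Ranger, version 2.1.1 per the submitters' processing notes, which name the build GRCm39, and 7.1.0 per the file headers. Barcodes were dropped below 500 UMIs, below 200 genes or above 20% mitochondrial UMIs, and 137, 188 and 262 called doublets were removed. Cells were clustered without collagen genes (scanpy 1.11.5, leidenalg 0.10.2: 2000 variable genes, 40 components, 20 neighbours, resolution 1), and the 4016 stromal cells were clustered again (1500 genes, 20 components, 15 neighbours). A cluster was named, always as "-like", from at least 3 detected markers of a list that holds no collagen, and left unnamed where its 10 leading genes held more markers of another type than of its own. Counts were summed per type and library. Log2 ratios are of counts plus 0.5 over the summed counts, with conditional binomial 95% intervals (scipy 1.17.1). Levels carry exact Poisson intervals. Ratios needed at least 20 cells per library. No test was made, since each group is 1 library.

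The genes named are the collagens past the 2-fold rule in each type and comparison (up to 20), the processing genes past it (up to 8), 3 chain pairs, and some just inside the limit or abundant, which were chosen after their values were seen. The collagens, marker lists and processing genes were chosen with earlier results of these data known. Alternatives changed the clustering, the filters, the scaling (edgeR 4.0.16 TMM factors among them), the added count, the minimum count, the sex and the clusters included. The ratio and interval calculations were tested on simulated data. In counts simulated for papain against PBS, counting error alone put 3.27% of unchanged genes past 2-fold in fibroblast-like cells. The share in pericyte-like cells was 6.02%. Antisense and overlapping genes were not examined. Protein sequences were not used here.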

Additional observations from a re-analysis of the deposited data

Results flagged for a closer look

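Col23a1 differed in opposite directions in 2 vessel wall cell types for papain against PBS. In blood endothelial-like cells the log2 ratio was -2.98, from 231 UMIs in the PBS library and 44 in the papain library, and in vascular smooth muscle-like cells it was 2.01, at 12.3 and 51.1 CPM. Both were past 2-fold under all 12 alternative settings run for each. Within the smooth muscle-like Pln cluster Col23a1 had 8 UMIs in the PBS library and 6 in the papain library, and in the P2rx1 cluster, of 12 PBS and 91 papain cells, it stood at 56.5 and 98.7 CPM. Neither cluster could be given a ratio, the Pln cluster for its few UMIs and the P2rx1 cluster for its few PBS cells. The smooth muscle-like ratio thus holds for the class, not within a cluster. The part of the clusters' shares in the ratio of the class was not tested. With 1 library per group the difference between the cell types was not tested.

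All collagen UMIs over all cells differed in opposite directions in the sexes for papain+LND against papain. The log2 ratio was 0.71 in female cells and -0.18 in male cells. Osteoblast-like cells numbered 8, 13 and 62 among female cells and 1, 2 and 3 among male cells of the PBS, papain and papain+LND libraries, and without these cells the ratio over both sexes was 0.06. Sex was read from each cell's transcripts, and the difference between the sexes was not tested.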

How the results depend on the processing

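No paired analysis was possible because each group is 1 pooled library and the labels give no replicate numbers. Among 278 alternative values of the 20 main results, 191 kept the direction and moved by less than the counting interval or kept the count within 1.5 times, 78 moved further and 9 reversed. Among 842 values for single genes the numbers were 760, 76 and 6. The settings without osteoblast-like cells, without the cell of most UMIs, without or with single clusters and with the unnamed cluster were chosen after seeing the data. Female cells alone were not run for pericyte-like cells, papain against PBS, where the PBS library had 12. The causes of these differences were not tested, beyond the cells or genes a setting leaves out. Types with under 20 cells in a library, and genes with under 20 UMIs, could not be given a ratio at this depth.

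For all collagens over all cells the log2 ratio of papain against PBS was 1.03 with doublets kept, 1.07 with totals free of mitochondrial, ribosomal and haemoglobin genes, 0.97 in female cells, 1.03 in male cells, 1.22 without osteoblast-like cells and 1.09 without the cell of most UMIs. For papain+LND against papain it was 0.50 with doublets kept, 0.47 with TMM factors, 0.71 in female cells, -0.18 in male cells, 0.059 without osteoblast-like cells and 0.50 without the cell of most UMIs.

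Fibrillar collagens in fibroblast-like cells, papain against PBS, had a ratio of -0.0052 with doublets kept, -0.060 with the other totals, 0.015 under the gate on each cell's own markers, -0.043 with collagens kept in the clustering, 0.076 with each library clustered alone, -0.22 in female cells, 0.35 in male cells, -0.015 without the cluster of low UMI count and 0.27 in the Mfap5 cluster. Papain+LND against papain it was 0.20 with at least 1000 UMIs per cell, -0.032 under the gate, 0.073 with collagens kept, 0.035 with libraries alone, 0.087 in female and 0.37 in male cells, 0.22 with the unnamed cluster counted in, 0.088 without the low cluster, -0.0071 in the Mfap5 cluster and 0.20 without the cell of most UMIs. In pericyte-like cells the fibrillar ratio under the gate was 1.13 for papain against PBS and -0.011 for papain+LND against papain, and the second was 0.37 in female and 0.20 in male cells.

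Basement membrane collagens in fibroblast-like cells, papain against PBS, had ratios of -0.19 at resolution 2, -0.28 under the gate, 0.20 with libraries alone, -0.25 in male cells and -0.22 in the Mfap5 cluster. Papain+LND against papain they were 0.14 at resolution 2, 0.14 with at least 1000 UMIs, -0.15 under the gate, -0.34 with libraries alone, 0.50 in male cells and 0.15 with the unnamed cluster. In blood endothelial-like cells they were -0.21 with TMM factors and -0.11 under the gate for papain against PBS, and 0.36 in female cells, -0.033 in male cells and 0.44 without the Selp cluster for papain+LND against papain. In pericyte-like cells the latter was 0.052 under the gate.

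Counts of collagens past 2-fold in fibroblast-like cells, 5 higher and 1 lower for papain against PBS, became 3 higher in female cells, 8 higher and 5 lower with no minimum count, 3 higher and 0 lower with at least 50 UMIs, 2 lower in male cells and 0 lower in the Mfap5 cluster. For papain+LND against papain, 1 higher and 1 lower became 3 and 0 with libraries alone, 2 and 2 in female cells, 4 and 7 with no minimum, 2 lower with doublets kept and 0 lower in male cells. Processing genes, 4 higher and 2 lower for papain against PBS, became 1 higher at resolution 2, 2 higher with at least 1000 UMIs, 2 higher with libraries alone, 7 higher in male cells, 9 higher and 5 lower with no minimum, 7 higher in the Mfap5 cluster and 4 lower with doublets kept. For papain+LND against papain, 2 higher and 0 lower became 1 higher and 1 lower at resolution 2, 0 higher with doublets kept, with at least 1000 UMIs and with at least 50 UMIs, 1 higher in female cells, 0 higher and 1 lower in male cells and in the Mfap5 cluster, 1 higher with the unnamed cluster and 1 lower with no minimum.

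Single genes that reversed were Col10a1 over all cells for papain+LND against papain, at -1.95 in female cells and -0.42 without the cell of most UMIs, Col1a1 (-0.38) and Col1a2 (-0.14) over all male cells for the same comparison, Col7a1 in fibroblast-like cells for papain+LND against papain with libraries alone (1.13), and Col13a1 in pericyte-like cells for papain against PBS under the gate (1.36).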
